A study of Mus musculus with 13 samples.

Results

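The comparison described here is of dystrophin-deficient muscle with and without a sarcospan transgene. It sets 4 mdxTG libraries against 4 mdx libraries, 8 of the 13 libraries in the series, and covers every gene in the deposited expression sheet. The members were chosen by the genotype in the sample labels. The mdxTG group is mdx mice that carry a sarcospan (SSPN) transgene. The mdx group is mdx mice without it. Both groups therefore carry the mdx mutation, which leaves muscle without dystrophin and is a standard mouse model of Duchenne muscular dystrophy. All 8 samples are tibialis anterior, the fast-twitch muscle at the front of the shin, and polyadenylated RNA was sequenced from it with a strand-marking kit. The labels do not give the promoter or the species of the transgene, the number of founder lines, or the age and sex of the mice. Differences between the groups in line, age or sex cannot be told apart from the transgene. The labels number the replicates of each genotype from 1 to 4 and do not state that each is a separate animal. The p-values therefore measure the spread between libraries, which may in part be technical. Except in the exact tests, p-values and standard errors take that spread from all 13 libraries, the 5 wild-type ones included.

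Dystrophin links the actin cytoskeleton of the muscle fibre to a complex of membrane proteins, and through the laminin receptor dystroglycan to the basement membrane. Sarcospan is a small protein with several membrane-spanning segments that sits in this complex beside the sarcoglycans. Utrophin, a relative of dystrophin, can form a similar complex, and integrins containing the alpha 7 chain are a separate laminin receptor of the fibre. Without dystrophin the sarcolemma tears during contraction, fibres die and regenerate in repeated rounds, and inflammatory cells and connective tissue accumulate.

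Expression is given as normalized CPM, CPM after a scaling factor per library, where CPM is read counts scaled to library size, and values of a gene are listed in the order of replicates 1 to 4. Reads assigned to listed genes ran between 42.97 and 53.8 M in the mdxTG libraries and between 43.13 and 49.41 M in the mdx libraries, so 3 reads correspond to between 0.0504 and 0.0668 normalized CPM. The deposited values hold scaling factors between 1.107 and 1.191 for mdxTG and between 1.006 and 1.068 for mdx. The 10 most abundant genes took between 18.24% and 20.76% of gene reads in mdxTG and between 22.48% and 24.14% in mdx, and mitochondrially encoded genes took between 8.78% and 10.89% in mdxTG and between 10.5% and 14.75% in mdx. The fast-fibre myosin Myh4 and the skeletal actin Acta1 were abundant in all 8 libraries, between 16788 and 40978 normalized CPM for Myh4 and between 18981 and 27081 for Acta1. Spearman correlations over genes were between 0.9896 and 0.995 among mdxTG libraries, between 0.9861 and 0.9938 among mdx libraries, and between 0.9616 and 0.9764 across the genotypes. The first principal component of the 8 libraries held 65.16% of the variance and separated the genotypes without overlap. Levels are not divided by transcript length, so they are compared between groups and never between genes.

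Sspn, the gene for sarcospan at chr6:145931641-145965223 on the plus strand (mm10, GENCODE M21 annotation, ENSMUSG00000030255.13), had 1703, 2006, 1660.4 and 1583 in the mdxTG libraries, against 119, 110.5, 118 and 109 in the mdx libraries. The lowest mdxTG library was far above the highest mdx library. The log2 fold, mdxTG over mdx on the log2(normalized CPM + 0.5) scale used throughout, was 3.92 ± 0.10 (standard error), with a limma adjusted p of 2.89e-12. An exact two-sided permutation test on the 8 values gave p = 0.0286, the smallest that 4 libraries against 4 can give. Transgene RNA enters this level only as far as its reads map to mouse Sspn. Dmd, the mutated dystrophin gene itself, averaged 59.2 ± 3.69 in mdxTG and 52.6 ± 4.44 in mdx, with overlapping libraries and an exact p of 0.0857. Its transcript is still made in mdx muscle, so its level checks nothing about the mutation. Utrn, the gene for utrophin, had 64.2, 104, 76.9 and 94.1 in the mdxTG libraries, against 56.8, 55.3, 78.3 and 89.5 in the mdx libraries. Those groups overlapped, the limma log2 fold was 0.28 ± 0.23 with an adjusted p of 0.408, and the exact p was 0.257.

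**Figure D1:**
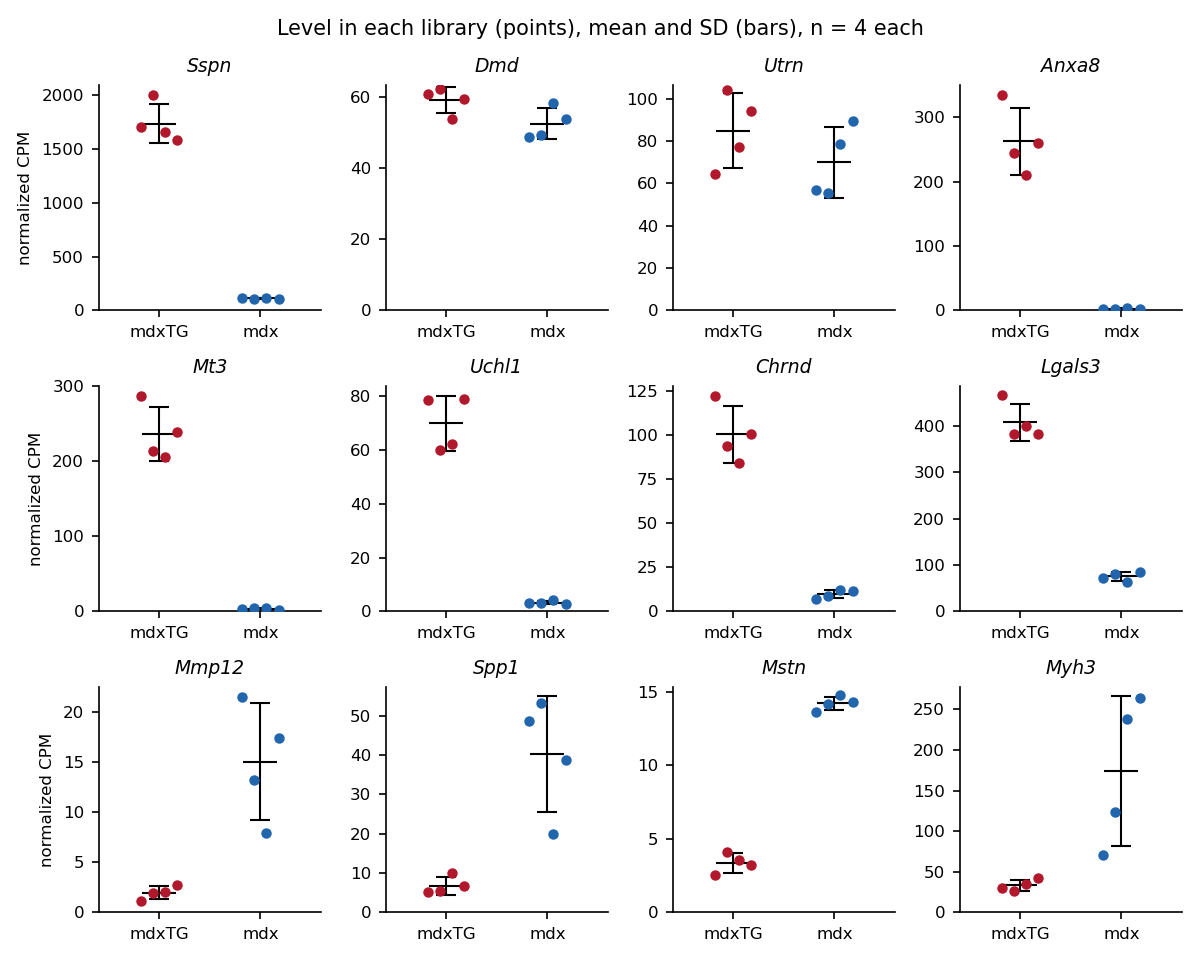
Level of 12 genes in each library, in normalized CPM on linear axes starting at 0, with mdxTG on the left and mdx on the right; points are libraries, bars the mean and SD of 4. Sspn, Anxa8, Mt3, Uchl1, Chrnd and Lgals3 lie higher in all mdxTG libraries than in any mdx library, Mmp12, Spp1, Mstn and Myh3 lie lower, and the libraries overlap for Dmd and Utrn.

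Across the sheet, 13831 of 13846 listed genes passed the filter of 0.5 normalized CPM in at least 4 libraries and were tested with limma. At an adjusted p under 0.05, 28.4% of them differed between the genotypes, 15.4% being higher in mdxTG and 12.9% lower. These shares are the background for every count of list members given later. Many of the differences were small. The median size among the 3922 genes called was 0.54 on the log2 scale, and 1770 of them changed by less than 0.5. A log2 fold above 1 was reached by 402 genes, 2.91% of those tested, and one below -1 by 206, or 1.49%. Beyond 2, the split was 80 higher against 14 lower. For 4569 genes, 33% of those tested, no mdxTG library overlapped any mdx library, and 3533 of these were also called.

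The split between rises and falls rests on the authors' scaling factors. In plain CPM, without those factors, the median log2 fold of all genes was 0.13 rather than 0, and 78.1% of the calls were higher in mdxTG, against 54.4% with the factors. No gene changed by more than 1 on the log2 scale took the opposite sign in plain CPM. Leaving out the factors shifts all genes by nearly the same small amount, so this outcome was fixed in advance and checks nothing. Of the 339 list members called, 47 lost the call in plain CPM. Counts that moved with it are given beside some lists only, so a list without them need not have held. In plain CPM 14 integrin adhesion genes were higher rather than 10. There 8 satellite cell and regeneration genes were lower rather than 10, and 6 calcium-handling genes and 6 macrophage markers rather than 8 of each. The authors' deposited table for the same comparison, limited to an adjusted p under 0.01 and an absolute log2 fold over 1, holds 748 genes, and 737 of the 741 also tested here were called in the same direction.

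**Figure D2:**
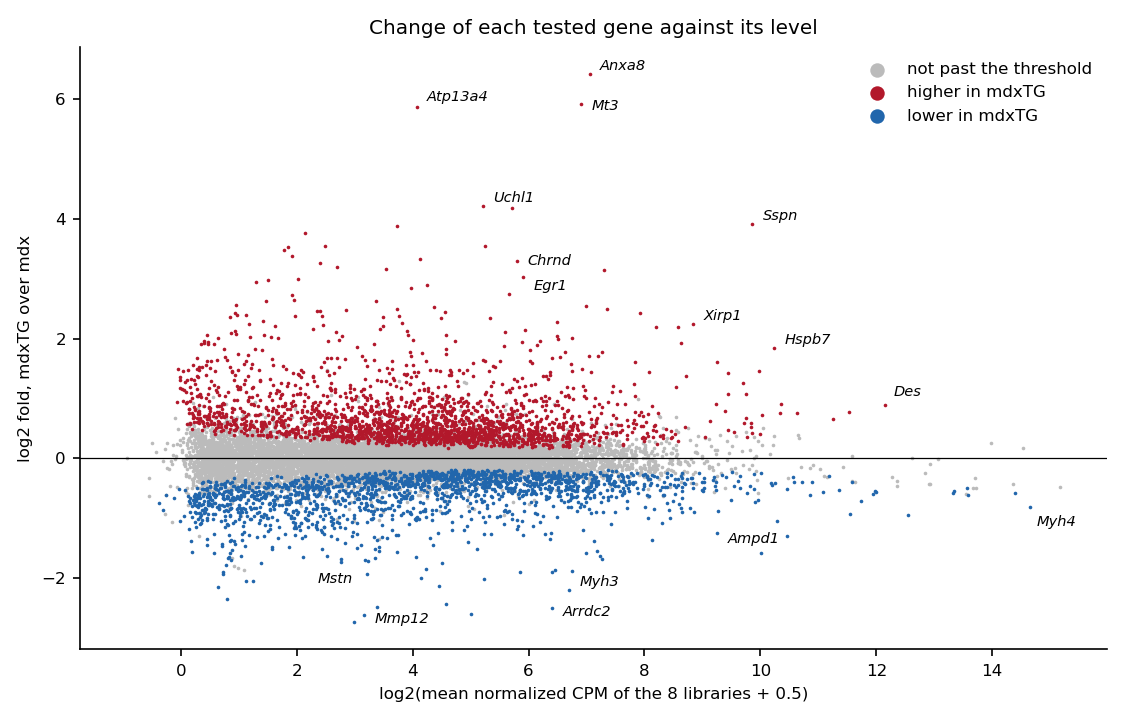
Log2 fold, mdxTG over mdx, of each of the 13831 tested genes (vertical axis) against its mean level over the 8 libraries (horizontal axis, log2 of normalized CPM + 0.5); red and blue points passed an adjusted p of 0.05, grey points did not. Rises reach 6.42 on the log2 scale for Anxa8, whereas the largest fall is at -2.73 for Mettl11b.

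The largest rises, beyond that of Sspn in log2 fold, were of genes at a few normalized CPM or less in mdx muscle. Anxa8, a calcium-dependent phospholipid-binding annexin at chr14:34085981-34100571, had 334, 245, 210.5 and 260.5 in the mdxTG libraries, against 1.81, 1.98, 4.18 and 2.65 in the mdx libraries. Mt3, a metallothionein best known from brain and located at chr8:94152607-94154146, had 286, 213, 206 and 239 in the mdxTG libraries, against 3.21, 3.97, 4.12 and 2.44 in the mdx libraries. Their log2 folds were 6.42 ± 0.26 and 5.92 ± 0.15, with adjusted p of 7.85e-10 and 2.89e-12. Atp13a4, a P-type cation transporter, had 53.4, 23.8, 26.5 and 26.5 normalized CPM in the mdxTG libraries, against 0.0655, 0.0223, 0.0219 and 0.0379 in the mdx libraries, where the highest value stood for 3 reads. Its mdxTG replicate 1 was well above the other replicates. The fitted log2 fold of 5.86 ± 0.20 depends on the pseudocount at such low mdx levels and is no measure of the ratio. The same holds for Gsta1, a glutathione S-transferase, with 10.9, 6.903, 6.68 and 6.49 in the mdxTG libraries, against 0.0873, 0.111, 0.0876 and 0.0758 in the mdx libraries, and for Prom2, a membrane-protrusion protein of epithelia, with 9.23, 5.52, 2.91 and 5.84 in the mdxTG libraries, against 0.0436, 0.0223, 0.0438 and 0.0379 in the mdx libraries.

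Other large rises started from mean levels between 0.383 for Sprr1a and 5.60 for Ndrg4 in mdx, a span that includes the mdx levels of Anxa8 and Mt3. Uchl1, a ubiquitin hydrolase abundant in neurons, had 78.5, 60.05, 61.97 and 78.6 in the mdxTG libraries, against 3.099, 3.01, 4.14 and 2.84 in the mdx libraries. Ndrg4, a gene of the NDRG family with high levels in brain and heart, had 71.5, 69.2, 68.01 and 69.2 in the mdxTG libraries, against 4.19, 6.48, 6.81 and 4.93 in the mdx libraries. Neither gene's libraries overlapped, and the log2 folds were 4.22 ± 0.19 and 3.54 ± 0.12. Msln, the mesothelial surface protein mesothelin, averaged 98.9 ± 26.9 in mdxTG and 4.99 ± 1.55 in mdx (SD, n = 4 each). Perp, a desmosomal p53 target, averaged 24.3 ± 4.003 in mdxTG and 1.18 ± 0.248 in mdx. Sprr1a, a small proline-rich protein also known from injured nerve, averaged 9.77 ± 1.33 in mdxTG and 0.383 ± 0.152 in mdx, and Fam83g averaged 31.2 ± 6.503 in mdxTG and 2.61 ± 0.281 in mdx. Limma adjusted p-values of these 4 genes lay between 3.64e-10 for Perp and 4.98e-08 for Msln.

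The largest falls included protein methyltransferases, the macrophage-linked genes Mmp12 and Spp1, and myostatin. Mettl11b, an N-terminal protein methyltransferase, had 1.895, 1.22, 2.07 and 1.07 in the mdxTG libraries, against 15.8, 15.6, 9.31 and 12.1 in the mdx libraries. Mettl21c, a lysine methyltransferase made in muscle, had 5.29, 5.61, 12.2 and 6.39 in the mdxTG libraries, against 61.9, 33.02, 29.8 and 17.8 in the mdx libraries. Both sets of libraries were separate, and the log2 folds were -2.73 ± 0.18 and -2.14 ± 0.38. Mmp12, the macrophage elastase, fell to 1.95 ± 0.643 in mdxTG, against 15.02 ± 5.81 in mdx, and Spp1, osteopontin, fell to 6.8002 ± 2.31 in mdxTG, against 40.2 ± 14.7 in mdx. Mstn, myostatin, the TGF-beta family member that restrains muscle growth, had 2.56, 4.13, 3.56 and 3.196 in the mdxTG libraries, against 13.6, 14.2, 14.7 and 14.3 in the mdx libraries. The mdx libraries all lay between 13.6 and 14.7, and the log2 fold was -1.94 ± 0.21 with an adjusted p of 1.22e-05.

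Arrdc2, an arrestin-domain gene, had 11.1, 25.1, 41.3 and 28.7 in the mdxTG libraries, against 97.9, 133, 155 and 181 in the mdx libraries, a log2 fold of -2.50 ± 0.29. Fam57b fell to 8.67 ± 2.47 in mdxTG, against 54.6 ± 7.75 in mdx, and the decarboxylase Gadl1 to 2.71 ± 1.23 in mdxTG, against 17.1 ± 5.15 in mdx. Igfn1, a Z-disc protein, fell to 35.8 ± 11.2 in mdxTG, against 133 ± 27.9 in mdx, Clu, the extracellular chaperone clusterin, to 24.4 ± 6.16 in mdxTG, against 90.6 ± 13.3 in mdx, and Ctxn3 to 14.3 ± 1.75 in mdxTG, against 60.3 ± 11.3 in mdx. Myh3, embryonic myosin, had 30.1, 26.3, 34.4 and 42.5 in the mdxTG libraries, against 70.9, 124, 239 and 264 in the mdx libraries, a log2 fold of -2.21 ± 0.64 with an adjusted p of 0.0184. Its call rested on mdx replicates 3 and 4, since the adjusted p was 0.0535 without replicate 3 and 0.0543 without replicate 4.

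In normalized CPM the largest rise was of Des, the muscle intermediate filament desmin, which had 6475, 5251, 5596 and 6437 in the mdxTG libraries, against 3111, 3160.4, 3529 and 2944 in the mdx libraries. Xirp2, an actin-binding repeat protein of the fibre ends, averaged 3736 ± 481 in mdxTG and 2181 ± 185 in mdx, and Fhl1, a LIM-domain protein, averaged 2980.0 ± 119 in mdxTG and 1925 ± 403 in mdx. The largest loss was of Myh4, the fastest myosin heavy chain, which had 20415, 16788, 20507 and 16794 in the mdxTG libraries, against 28262, 28911, 40978 and 34534 in the mdx libraries. Its groups did not overlap, and the log2 fold was -0.82 ± 0.21 with an adjusted p of 0.0103. Atp2a1, the calcium pump of fast fibres, fell to 17192 ± 969 in mdxTG, against 25968 ± 4519 in mdx, and mt-Nd5, a mitochondrially encoded subunit of complex I, to 9630.3 ± 598 in mdxTG, against 14816 ± 865 in mdx. Aldoa (aldolase), Tpm1 (tropomyosin) and mt-Nd2 had log2 folds between -0.59 and -0.50, but each call was lost without single libraries. Without mdx replicate 1, without mdxTG replicate 2 and without mdxTG replicate 4 the adjusted p lay between 0.0641 and 0.0922 for these 3 genes. Without mdx replicate 2 it was 0.0533 for Aldoa, 0.0558 for Tpm1 and 0.0782 for mt-Nd2, and without mdx replicate 3 it was 0.0605 for Aldoa.

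The 51 gene lists for pathways, structures and cell types hold 833 tested genes, of which 187 rose and 152 fell. In bulk tissue, fewer cells of a type and less RNA per cell cannot be told apart, and this holds for each list.

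**Figure D3:**
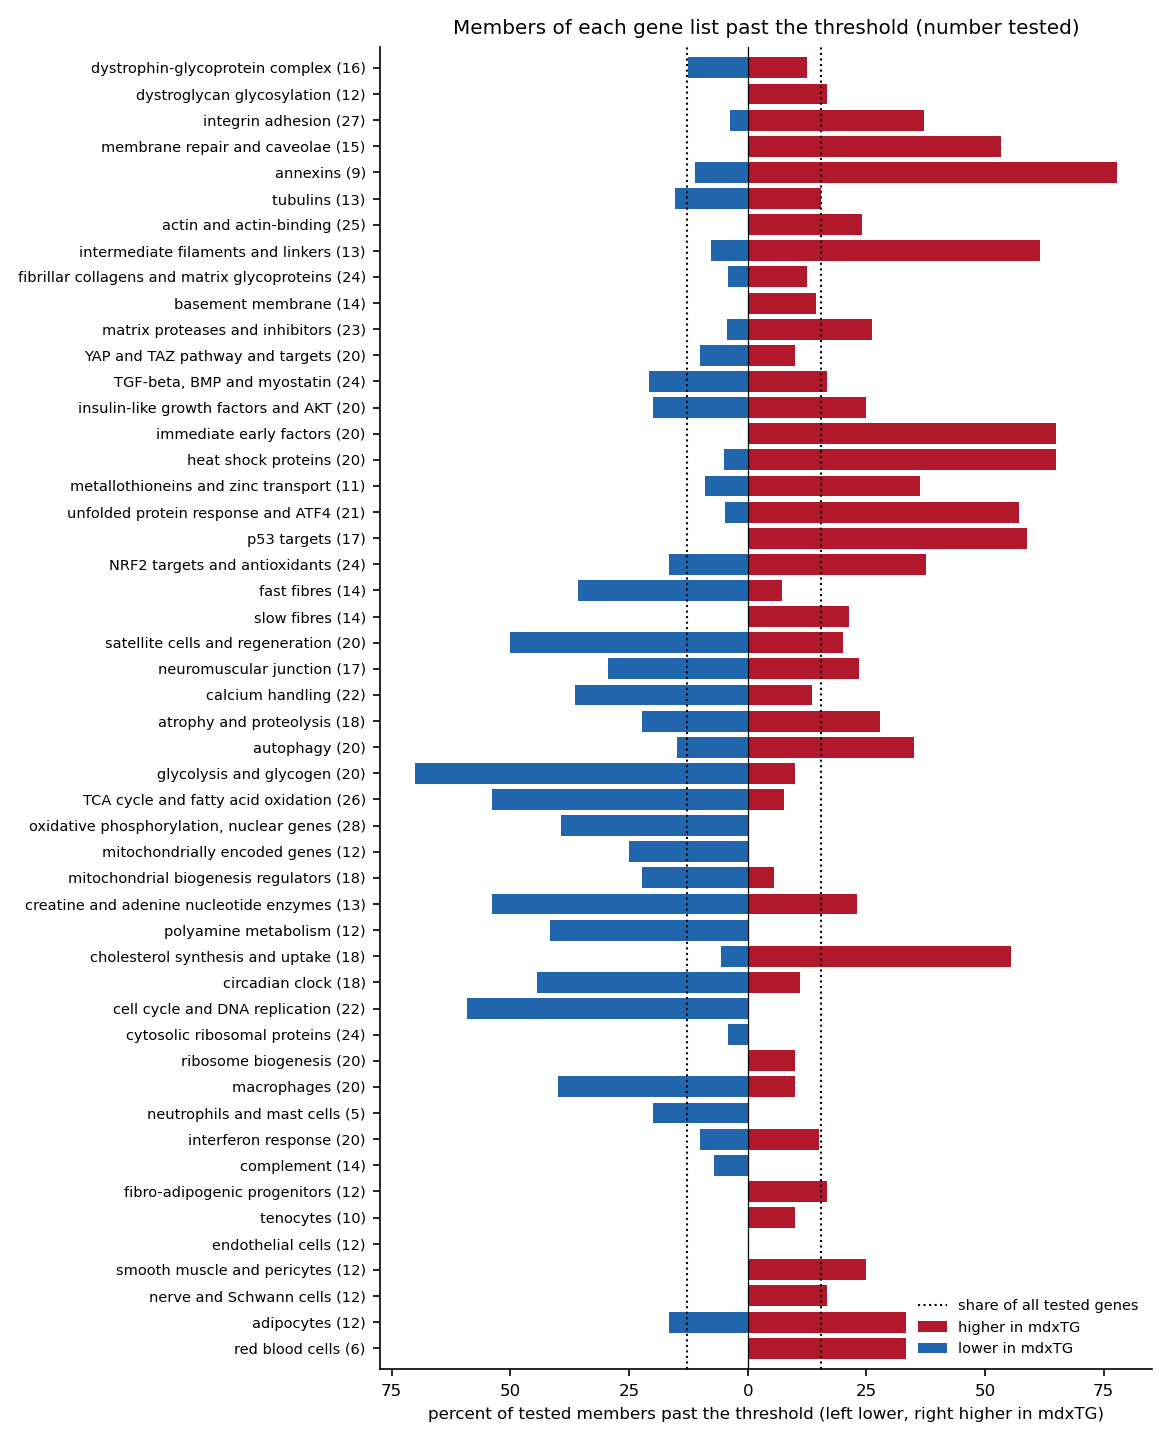
Percent of tested members of each gene list that passed an adjusted p of 0.05, higher in mdxTG to the right in red and lower to the left in blue, with the number tested in brackets; dotted lines mark the shares over all tested genes, 15.4% higher and 12.9% lower. Annexins, immediate early factors, heat shock proteins, intermediate filaments, p53 targets and the unfolded protein response reach farthest to the right, and glycolysis, the cell cycle, creatine and adenine nucleotide enzymes and the TCA cycle farthest to the left, the last falling to 6 of 26 members lower in plain CPM.

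In the dystrophin-glycoprotein complex, with 16 tested genes and a median log2 fold of 0.12, the number higher was 2 and the number lower 2. The list includes Sspn, whose rise goes with the transgene and is 1 of the 2. The sarcoglycan genes Sgca, Sgcb and Sgcd and dystroglycan (Dag1) did not pass the test. Sgca had 196, 168, 174 and 179 in the mdxTG libraries, against 170.2, 160.4, 192 and 164 in the mdx libraries, and Dag1 averaged 343 ± 64.9 in mdxTG and 302 ± 43.6 in mdx. Sntb1, beta-1-syntrophin, an adaptor on the inner face of the membrane, had 6.48, 7.52, 5.36 and 6.25 in the mdxTG libraries, against 10.6, 13.1, 16.9 and 18.1 in the mdx libraries. The groups were separate, with a log2 fold of -1.12 ± 0.21. The other rise was of Sgce, epsilon-sarcoglycan, by 0.44 ± 0.13 with a limma adjusted p of 0.0178. Its call was lost without mdx replicate 1, mdx replicate 2 or mdxTG replicate 4, each of which leaves Sspn as the only member higher. In plain CPM 4 members were higher, Sspn included. Nos1, the neuronal nitric oxide synthase bound by syntrophin, averaged 187 ± 25.6 in mdxTG and 143 ± 35.96 in mdx and did not pass.

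Among 12 genes that build the laminin-binding sugar of dystroglycan, 2 rose, and 6 did in plain CPM. Pomk, a kinase that acts on this sugar chain, had 16.1, 15.8, 15.3 and 14.5 in the mdxTG libraries, against 12.5, 11.9, 12.3 and 12.6 in the mdx libraries. The groups did not overlap, and the adjusted p was 0.00285.

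Integrin adhesion genes rose in 10 of 27 tested cases and 1 fell, with a median of 0.19. Itgav, the alpha V chain of the fibronectin and vitronectin receptors, had 109.9, 102, 87.1 and 91.1 in the mdxTG libraries, against 53.1, 52.02, 55.9 and 49.4 in the mdx libraries, a log2 fold of 0.88 ± 0.11. Lims1, the adaptor PINCH that joins integrin-linked kinase to the cytoskeleton, had 136, 138, 125 and 118 in the mdxTG libraries, against 76.1, 70.1, 75.6 and 73.6 in the mdx libraries. Tln1, talin, which couples integrin tails to actin, averaged 335 ± 29.1 in mdxTG and 201 ± 35.2 in mdx. The muscle laminin receptor chain Itga7 averaged 171 ± 7.59 in mdxTG and 150.1 ± 12.1 in mdx and did not pass, with an adjusted p of 0.116. The fall was of Tln2, talin 2, and was lost in plain CPM and without mdx replicates 3 or 4 or mdxTG replicates 1, 2 or 3. The number higher was 5 without mdx replicate 1 and 6 without mdx replicate 2, mdxTG replicate 2 or mdxTG replicate 4, while Itgav, Lims1, Tln1, Itga5 and Itga9 kept their calls in each fit that left out a library.

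Membrane repair genes rose in 8 of 15 cases, with a median of 0.40, and between 7 and 8 rose when any single library was left out. Trim72, the muscle protein MG53 that seeds vesicle patches at membrane wounds, had 246, 251, 250.3 and 264 in the mdxTG libraries, against 165, 166, 174 and 146 in the mdx libraries. Dysf, dysferlin, the calcium sensor of patch fusion, had 137, 139, 125 and 138 in the mdxTG libraries, against 97.6, 108, 109 and 91.6 in the mdx libraries. Both genes' libraries were separate, with log2 folds of 0.64 ± 0.11 and 0.41 ± 0.08. S100a10, the annexin A2 partner, rose to 83.7 ± 8.29 in mdxTG, against 39.7 ± 7.49 in mdx, and Cavin4, a muscle coat protein of caveolae, to 267 ± 18.3 in mdxTG, against 178 ± 9.43 in mdx. Ahnak rose to 861 ± 34.99 in mdxTG, against 634 ± 39.8 in mdx, and Pdcd6ip, the ESCRT adaptor ALIX, to 101 ± 7.07 in mdxTG, against 66.5 ± 5.19 in mdx. The caveolins Cav1, Cav2 and Cav3 did not pass, with log2 folds between -0.22 for Cav3 and -0.06 for Cav2.

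Annexins, which gather at membrane wounds in a calcium-dependent way, rose in 7 of 9 tested cases. Beside Anxa8, Anxa1 had 170.4, 156, 152 and 156 in the mdxTG libraries, against 46.4, 55.7, 51.1 and 59.2 in the mdx libraries, a log2 fold of 1.57 ± 0.13 with an adjusted p of 8.66e-07. Anxa4 averaged 84.4 ± 7.75 in mdxTG and 42.98 ± 5.41 in mdx, and Anxa2 averaged 217 ± 14.1 in mdxTG and 114 ± 14.3 in mdx. Anxa5, Anxa6 and Anxa7 were higher by 0.46 ± 0.11, 0.36 ± 0.08 and 0.65 ± 0.15 on the log2 scale. Anxa3 was lower by -0.41 ± 0.13, with an adjusted p of 0.0336, and lost that call in plain CPM and without any of mdx replicates 2, 3 and 4 or mdxTG replicates 2, 3 and 4, where the adjusted p reached at most 0.101. The summed level of the 9 genes was between 1380 and 1525 normalized CPM in mdxTG and between 708 and 780 in mdx.

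Intermediate filaments and their linkers rose in 8 of 13 cases. Nes, nestin, a filament of regenerating fibres and of the junction regions, had 622, 453, 354 and 509 in the mdxTG libraries, against 90.9, 87.3, 125 and 118 in the mdx libraries, a log2 fold of 2.19 ± 0.16. Lmna, the nuclear lamin A, had 192, 194, 182 and 207 in the mdxTG libraries, against 106, 101, 108 and 97.1 in the mdx libraries, whereas Lmnb1, lamin B1, fell to 4.89 ± 0.249 in mdxTG, against 9.92 ± 0.742 in mdx. Both lamin pairs were separate, with adjusted p of 5.4e-07 and 1.1e-05. Sync, syncoilin, a desmin partner at the complex, averaged 98.2 ± 4.86 in mdxTG and 59.8 ± 4.77 in mdx. Krt18, a keratin also found in muscle, averaged 3.79 ± 1.16 in mdxTG and 1.47 ± 0.297 in mdx. Between 6 and 8 members were higher when any single library was left out.

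Among 25 actin and actin-binding genes 6 rose, and the median was 0.15. Xirp1, the actin-binding Xin protein of damaged fibres, had 633, 799.6, 710.2 and 878 in the mdxTG libraries, against 126, 207, 163 and 145 in the mdx libraries. Csrp3, the muscle LIM protein of the Z-disc, had 172, 159, 151 and 195 in the mdxTG libraries, against 46.4, 71.3, 39.6 and 22.1 in the mdx libraries, and its lowest mdx library was replicate 4. The groups were separate for both, with log2 folds of 2.25 ± 0.22 and 2.02 ± 0.41. Flnc, filamin C, averaged 1702 ± 236 in mdxTG and 914 ± 188 in mdx, and Capg, an actin-capping protein, averaged 40.8 ± 2.36 in mdxTG and 26.1 ± 3.47 in mdx. Ankrd1 did not pass and had 162, 118, 114 and 155 in the mdxTG libraries, against 77.1, 201, 80.3 and 86.6 in the mdx libraries, with mdx replicate 2 above all other libraries. Of 13 tubulin genes, Tubb6 rose to 195 ± 16.2 in mdxTG, against 72.8 ± 15.01 in mdx, and Tubb5 to 172 ± 23.1 in mdxTG, against 77.3 ± 6.39 in mdx. In plain CPM 5 tubulins were higher. Tubb2b and Tubb3 were lower with adjusted p of 0.0413 and 0.0308. The Tubb2b call was lost in plain CPM and without any single library other than mdx replicate 1, and the Tubb3 call without mdx replicate 3, mdx replicate 4 or mdxTG replicate 1, where its adjusted p lay between 0.0867 and 0.0967.

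Of 24 collagens and matrix glycoproteins, 3 rose and 1 fell. Their summed level was 7414, 11837, 8855 and 12370.3 in the mdxTG libraries, against 5247, 6130.3, 8810 and 8962 in the mdx libraries. Col1a1 averaged 982 ± 253 in mdxTG and 734 ± 211 in mdx and did not pass, nor did Col3a1 with 1809 ± 426 in mdxTG and 1436 ± 346 in mdx. Lum, the collagen-binding proteoglycan lumican, had 247, 301, 252 and 239.6 in the mdxTG libraries, against 95.8, 131, 121 and 132 in the mdx libraries, a log2 fold of 1.12 ± 0.19. Col5a3 averaged 203 ± 18.8 in mdxTG and 138 ± 19.6 in mdx. Eln, elastin, was lower by -0.63 ± 0.15 with an adjusted p of 0.00539, and its groups overlapped. Without mdxTG replicate 1, the library with the lowest sum among the mdxTG ones, 6 members were higher, DESeq2 called 5, plain CPM gave 5, and a fit of the mdxTG and mdx libraries alone gave 7.

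Summed levels of tendon and progenitor markers also overlapped between the groups. The 10 tenocyte markers summed to 561, 1059.9, 1034 and 1218 in the mdxTG libraries, against 415, 487, 832 and 695 in the mdx libraries. The 12 fibro-adipogenic progenitor markers summed to 2291, 3573, 2958 and 3265 in the mdxTG libraries, against 1930.04, 2235, 2795 and 3038 in the mdx libraries. The part of these cells in the collagen values was not tested. Among single markers, Tppp3 of tenocytes rose by 0.66 ± 0.15 and Mfap5 of progenitors by 0.54 ± 0.14, and the other 9 tenocyte markers did not pass. Without mdxTG replicate 1, 2 tenocyte markers were higher. Dcn, decorin, was higher by 0.68 ± 0.23 with an adjusted p of 0.0381 that exceeded 0.05 without mdx replicates 1 or 2 or mdxTG replicates 2, 3 or 4. Basement membrane genes rose in 2 of 14 cases. Col18a1 had 43.5, 67.4, 40.6 and 65.7 in the mdxTG libraries, against 21.8, 25.8, 33.8 and 32.5 in the mdx libraries. Lamb1 was higher by 0.79 ± 0.26, with an adjusted p of 0.0323 that lay between 0.0855 and 0.107 without mdx replicates 1 or 2 or mdxTG replicates 2 or 4. Without mdxTG replicate 1, 4 basement membrane genes were higher.

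Matrix proteases and their inhibitors rose in 6 of 23 cases. Beside the fall of Mmp12, Plau, the urokinase that activates plasminogen, rose to 56.1 ± 6.41 in mdxTG, against 38.03 ± 1.97 in mdx, and Mmp15 to 38.8 ± 4.16 in mdxTG, against 28.4 ± 3.93 in mdx. The other 4 rises, of Mmp14, Timp2, Adamts1 and Loxl1, were lost without mdx replicate 1, mdxTG replicate 2 or mdxTG replicate 4, each of which leaves 2 members higher.

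In the YAP and TAZ pathway, which carries mechanical signals to the nucleus, 2 of 20 genes rose and 2 fell. Wwtr1, the coactivator TAZ, had 98.5, 105, 104 and 104 in the mdxTG libraries, against 52.9, 51.4, 52.7 and 54.97 in the mdx libraries, and Tead4, a DNA-binding partner, had 28.5, 29.1, 28.3 and 32.8 in the mdxTG libraries, against 11.4, 12.7, 13.6 and 13.5 in the mdx libraries. These groups were narrow and separate, with log2 folds of 0.95 ± 0.09 and 1.18 ± 0.13 and adjusted p of 2.92e-06 and 1.01e-05. Yap1 itself averaged 89.6 ± 4.799 in mdxTG and 90.2 ± 5.87 in mdx. The classical target Cyr61 averaged 34.8 ± 5.43 in mdxTG and 35.2 ± 3.77 in mdx, and Ctgf averaged 45.7 ± 20.6 in mdxTG and 36.3 ± 4.76 in mdx. Yap1, Cyr61 and Ctgf did not pass the test. The falls of Ajuba and Tead3 were lost in plain CPM, where the median of the list was 0.13 rather than -0.01, and also without mdx replicate 3 or mdxTG replicate 1.

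TGF-beta and myostatin signalling genes moved both ways, 4 higher and 5 lower of 24. The number lower was 3 in plain CPM and without mdx replicate 1, mdxTG replicate 1 or mdxTG replicate 2. Mstn fell as given, and Fst, follistatin, its extracellular inhibitor, had 10.98, 11.9, 11.4 and 10.8 in the mdxTG libraries, against 5.24, 5.97, 6.28 and 5.61 in the mdx libraries, a log2 fold of 0.91 ± 0.14. Tgfb1, the main profibrotic ligand, had 26.3, 27.3, 23.8 and 30.2 in the mdxTG libraries, against 15.4, 12.1, 16.1 and 18.4 in the mdx libraries, and Ltbp1, which stores it in the matrix, averaged 44.6 ± 3.39 in mdxTG and 23.9 ± 6.26 in mdx. Smad3, a transducer of both ligands, had 71.7, 81.4, 78.1 and 65.5 in the mdxTG libraries, against 126, 149, 125 and 122 in the mdx libraries. All mdxTG libraries lay below the lowest mdx library for Smad3, and its adjusted p was 0.000183. Among 20 insulin-like growth factor and AKT genes, 5 rose and 4 fell. Igfbp5, an abundant muscle binding protein, had 1209, 1290.4, 1041 and 1094 in the mdxTG libraries, against 419, 527, 661 and 630.3 in the mdx libraries, and Igfbp4 averaged 118 ± 15.8 in mdxTG and 60.8 ± 9.14 in mdx. Igfbp3 fell to 10.4 ± 2.15 in mdxTG, against 21.9 ± 4.23 in mdx, and the growth factor Igf2 to 1.92 ± 0.245 in mdxTG, against 4.89 ± 2.03 in mdx. Akt1 rose by 0.52 ± 0.07, and Rps6kb1, the S6 kinase downstream of mTOR, fell to 35.5 ± 2.996 in mdxTG, against 46.4 ± 2.68 in mdx.

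Immediate early transcription factors, switched on within minutes of stimulation or stretch, rose in 13 of 20 cases, with a median of 0.53. The number higher was between 11 and 13 when any single library was left out. The EGR family led. Egr1 had 88.2, 117, 97.6 and 122 in the mdxTG libraries, against 16.5, 17.7, 9.31 and 9.001 in the mdx libraries, Egr2 had 9.27, 9.48, 7.62 and 8.52 in the mdxTG libraries, against 1.92, 1.94, 1.55 and 2.07 in the mdx libraries, and Egr3 had 10.2, 8.73, 5.76 and 7.77 in the mdxTG libraries, against 1.48, 1.14, 1.03 and 0.644 in the mdx libraries. In each, the lowest mdxTG library was more than 3 times the highest mdx library, and log2 folds were 3.02 ± 0.21, 1.96 ± 0.18 and 2.46 ± 0.21. The AP-1 subunits Junb and Fosl1 rose to 32.5 ± 8.84 and 3.59 ± 0.434 in mdxTG, against 13.6 ± 1.29 and 1.26 ± 0.861 in mdx. Ier2 and Ier3 rose by 1.01 ± 0.10 and 1.13 ± 0.15, and Atf3, a stress-induced factor, by 1.02 ± 0.18. Fosb, Fosl2, Jun, Ier5, Klf2, Klf4 and Nr4a1 did not pass. In RefSeq promoter windows of 300 bases (GRCm38.p6), found for 15 of these 20 genes, the CArG box bound by serum response factor was present in 4 of 19 windows, against 1.63% of all 32851 windows. All 4 are windows of Egr2, so that share rests on a single gene. Egr1 and Egr3 are not among the genes with the box, for lack of it or of a window. The AP-1 letters TGANTCA, searched on both strands, were in none of the 19, against 7.81% of all windows.

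Heat shock proteins rose in 13 of 20 cases and 1 fell, with a median of 0.48, and 17 were higher in plain CPM. Several of them were small heat shock proteins, chaperones that hold unfolding muscle proteins. Hspb7 had 1924, 1874, 1709 and 2058 in the mdxTG libraries, against 496, 619, 601 and 414 in the mdx libraries, Hspb8 had 1224, 961, 868 and 982 in the mdxTG libraries, against 439, 411, 319 and 336 in the mdx libraries, and Cryab, alpha-B-crystallin, had 1584, 1299, 1554 and 1421 in the mdxTG libraries, against 633, 647, 476 and 412 in the mdx libraries. All mdxTG libraries were above all mdx libraries in each, with log2 folds of 1.84 ± 0.22, 1.42 ± 0.13 and 1.45 ± 0.17. Hspb1 averaged 169.7 ± 10.7 in mdxTG and 85.1 ± 17.6 in mdx. Hspb6 and Hspb2 were higher by 0.42 ± 0.11 and 0.55 ± 0.12, and Hsp90ab1, a cytosolic chaperone, by 0.72 ± 0.10. The inducible Hspa1a and Hspa1b averaged 5.11 ± 0.725 and 5.41 ± 0.789 in mdxTG and 1.58 ± 0.313 and 1.75 ± 0.519 in mdx, and since these are near-identical copies the reads may be split between them. Hspd1, a mitochondrial chaperone, was lower by -0.31 ± 0.10 with overlapping groups, an adjusted p of 0.0269 and no call in plain CPM or without any of 6 single libraries.

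Promoter windows, 250 bases before to 50 after the RefSeq start (GRCm38.p6), were available for 15 of the 20 heat shock genes. The heat shock element GAANNTTC, which reads the same on both strands, was in 12 of 22 windows, 54.55%, against 7.86% of all windows. A match to any motif searched could overlap a match to another, and a match is a description, not a bound site. The windows of Hspb1, chr5:135887669-135887968 on the plus strand, and Hspb8, chr5:116422815-116423114 on the minus strand, are shown with the element in capitals. Both genes hold it and were higher in every mdxTG library than in any mdx library.
Hspb1: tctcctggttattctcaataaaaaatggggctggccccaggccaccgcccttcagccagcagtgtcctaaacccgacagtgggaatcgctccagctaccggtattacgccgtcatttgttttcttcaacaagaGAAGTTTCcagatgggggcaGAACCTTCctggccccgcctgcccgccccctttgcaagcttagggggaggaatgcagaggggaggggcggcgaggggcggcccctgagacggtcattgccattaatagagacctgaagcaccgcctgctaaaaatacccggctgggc
Hspb8: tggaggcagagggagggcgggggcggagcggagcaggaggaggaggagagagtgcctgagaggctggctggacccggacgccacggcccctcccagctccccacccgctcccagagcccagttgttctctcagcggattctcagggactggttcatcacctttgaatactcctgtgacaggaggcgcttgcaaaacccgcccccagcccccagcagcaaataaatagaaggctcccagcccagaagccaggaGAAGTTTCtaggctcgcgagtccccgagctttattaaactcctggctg
Hspb1 holds the element 2 times and Hspb8 1 time. It also occurs in the windows of the called genes Bag3, Hspa1a, Hspa1b, Hspb6, Hsph1 and Hspd1 and of Dnaja1, Hspb3 and Hspe1, which did not pass. Hspb7 and Cryab were also higher in every mdxTG library than in any mdx library. They are not among the genes with the element, for lack of it or of a window.

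Metallothioneins, small cysteine-rich proteins that bind zinc and copper, rose in all 4 cases tested, and no other member of the 11-gene zinc list rose, against 7 higher in plain CPM. Beside Mt3, Mt1 had 106, 97.1, 127 and 125 in the mdxTG libraries, against 31.3, 104, 30.02 and 33.6 in the mdx libraries, and Mt2 had 227, 193, 205 and 265 in the mdxTG libraries, against 45.5, 199, 42.1 and 45.2 in the mdx libraries. For these the mdx replicate 2 library reached the range of the mdxTG libraries, so the groups overlapped. The log2 folds were 1.40 ± 0.31 and 1.77 ± 0.37 with adjusted p of 0.00380 and 0.00246, and for Mt2 the log2 fold was 2.31 without mdx replicate 2. Mt3 in that library was at 3.97, inside the range of the other mdx libraries, between 2.44 and 4.12. Mt4 had 2.77, 1.84, 1.28 and 1.03 in the mdxTG libraries, against 0, 0.0446, 0 and 0 in the mdx libraries, and the only mdx value above 0 stood for 2 reads. Slc30a2, a zinc exporter, fell to 4.57 ± 2.62 in mdxTG, against 14.7 ± 4.36 in mdx.

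The metal response element, searched on both strands as TGCACNC or TGCGCNC and counted as a single motif, was in 7 of 11 windows of the 10 matched genes of this list, 63.64%, against 25.7% of all windows. Its share was 45.45% of the heat shock windows, 42.11% of the immediate early windows and 30.43% of the unfolded protein response windows. The windows of Mt3, Mt2 and Mt1, on the plus strand of chromosome 8 at chr8:94152357-94152656, chr8:94172368-94172667 and chr8:94178839-94179138, are shown because these neighbours differ in how far they rose. Capitals mark the element.
Mt3: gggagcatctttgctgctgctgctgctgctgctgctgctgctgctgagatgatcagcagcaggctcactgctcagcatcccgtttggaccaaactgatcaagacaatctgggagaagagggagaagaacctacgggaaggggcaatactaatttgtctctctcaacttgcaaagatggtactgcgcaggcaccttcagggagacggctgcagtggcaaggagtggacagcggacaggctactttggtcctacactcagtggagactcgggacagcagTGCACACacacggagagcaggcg
Mt2: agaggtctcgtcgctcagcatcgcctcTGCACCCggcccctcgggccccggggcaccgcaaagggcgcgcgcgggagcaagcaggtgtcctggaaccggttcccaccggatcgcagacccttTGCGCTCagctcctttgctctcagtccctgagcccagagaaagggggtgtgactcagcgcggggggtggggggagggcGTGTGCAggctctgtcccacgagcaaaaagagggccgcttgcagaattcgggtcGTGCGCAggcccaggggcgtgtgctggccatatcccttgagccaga
Mt1: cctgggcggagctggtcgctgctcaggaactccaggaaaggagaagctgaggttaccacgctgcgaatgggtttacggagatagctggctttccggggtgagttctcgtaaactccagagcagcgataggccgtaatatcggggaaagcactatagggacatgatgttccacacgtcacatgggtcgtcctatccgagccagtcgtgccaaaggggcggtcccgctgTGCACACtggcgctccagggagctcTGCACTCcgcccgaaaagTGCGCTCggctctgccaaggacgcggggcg
Mt3, with the largest rise of these 3, holds 1 element, Mt2 holds 4 and Mt1 holds 3. Mt4, which also rose, holds 1. Slc30a2, which fell, holds 2. Slc30a1 and Slc30a4, which did not pass, hold 2 and 3.

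**Figure D4:**
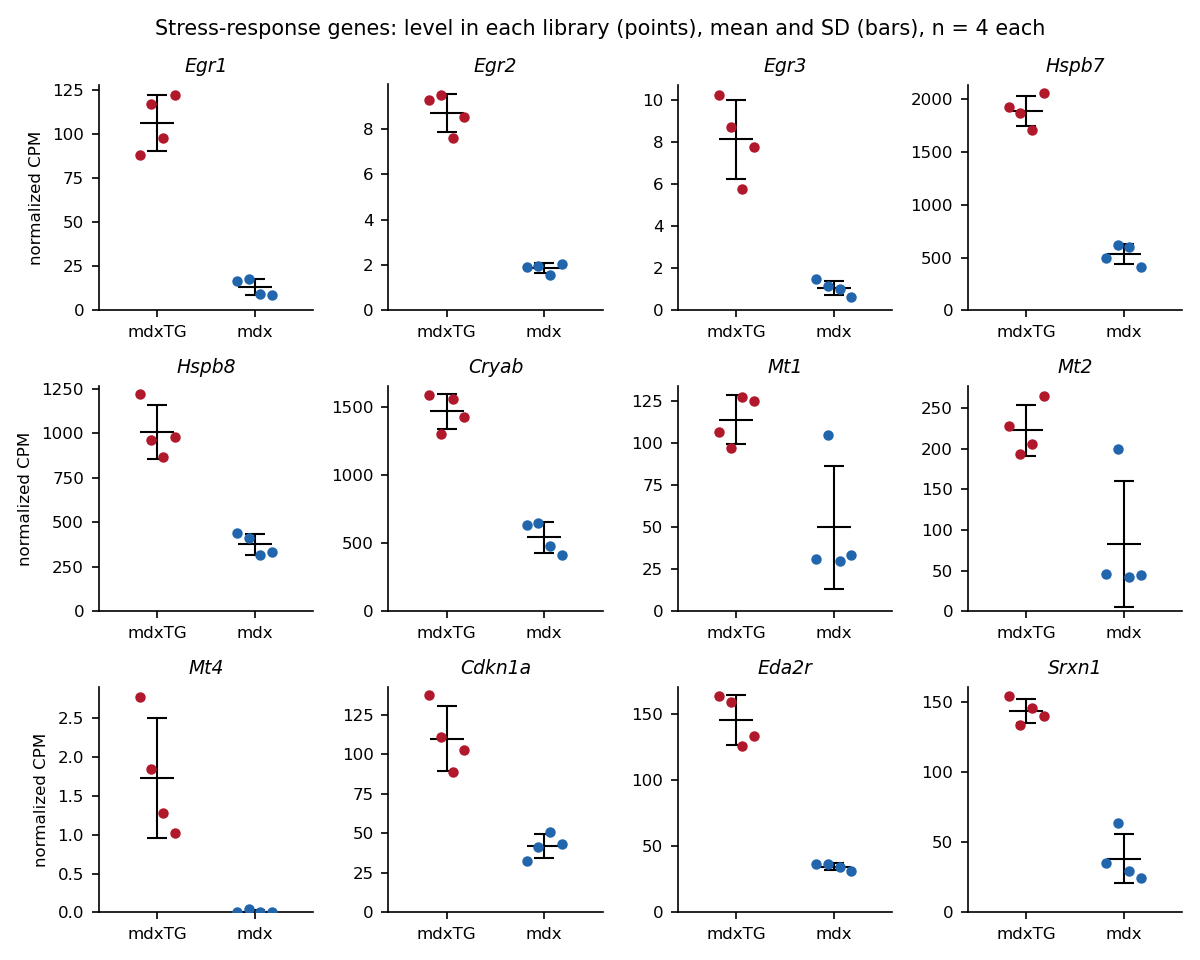
Level of 12 stress-response genes in each library, in normalized CPM on linear axes starting at 0, with mdxTG on the left and mdx on the right; points are libraries, bars the mean and SD of 4. Egr1, Egr2, Egr3, Hspb7, Hspb8, Cryab, Mt4, Cdkn1a, Eda2r and Srxn1 are separate between the genotypes, while the mdx replicate 2 library lies near the mdxTG range for Mt1 and Mt2.

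The unfolded protein response rose in 12 of 21 cases with a median of 0.45, and in 10 or 11 cases when any single library was left out. Hspa5, the main chaperone of the endoplasmic reticulum, had 321, 368, 346 and 319 in the mdxTG libraries, against 224, 255, 216 and 233 in the mdx libraries. Dnajb9, its cofactor, averaged 65.9 ± 2.82 in mdxTG and 43.02 ± 2.67 in mdx, and Calr, calreticulin, averaged 227 ± 4.65 in mdxTG and 163 ± 10.1 in mdx. Ddit3, the factor CHOP, averaged 14.1 ± 2.04 in mdxTG and 8.39 ± 1.66 in mdx. Atf4 and its targets Asns and Trib3 did not pass, with log2 folds of -0.20 ± 0.14, -0.33 ± 0.14 and 0.14 ± 0.16. Chac1, a glutathione-degrading target of Atf4, had 5.96, 11.5, 13.5 and 7.58 in the mdxTG libraries, against 16.5, 27.8, 48.8 and 47.01 in the mdx libraries, a fall with adjusted p of 0.00878. The letters TGATGNAAN, searched on both strands for the Atf4 element, were in 4 of 23 windows of the 20 matched genes, against 3.95% of all windows. Those were windows of Asns, Chac1, Herpud1 and Trib3, none of which rose. Atf3, of the immediate early list, also holds a match and rose.

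Targets of p53, the factor activated by DNA damage and other stress, rose in 10 of 17 cases, and 10 rose when any single library was left out. Eda2r, a TNF-receptor family member, had 164, 159, 126 and 133 in the mdxTG libraries, against 36.4, 36.4, 34.5 and 30.9 in the mdx libraries, a log2 fold of 2.05 ± 0.14. Cdkn1a, the cell-cycle inhibitor p21, had 137, 111, 88.5 and 102 in the mdxTG libraries, against 32.2, 41.1, 50.98 and 43.5 in the mdx libraries, and Plk2 had 55.1, 39.5, 31.2 and 43.4 in the mdxTG libraries, against 15.8, 15.7, 14.9 and 14.1 in the mdx libraries. All 3 genes had separate groups. Bbc3, the pro-death protein PUMA, averaged 4.59 ± 1.02 in mdxTG and 2.23 ± 0.276 in mdx. Mdm2 and Phlda3 were higher by 0.31 ± 0.08 and 0.39 ± 0.10, while Bax, Ccng1 and Sesn1 did not pass.

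Targets of NRF2 and antioxidant genes rose in 9 of 24 cases and fell in 4, against 14 higher and 3 lower in plain CPM. Srxn1, sulfiredoxin, had 154, 134, 145 and 140.2 in the mdxTG libraries, against 35.3, 63.9, 29.2 and 24.6 in the mdx libraries, and Nqo1, a quinone reductase, had 46.9, 41.4, 41.6 and 32.3 in the mdxTG libraries, against 16.6, 15.9, 12.2 and 12.1 in the mdx libraries. Their log2 folds were 1.99 ± 0.20 and 1.48 ± 0.16, and the groups were separate. Gsr, glutathione reductase, Cat, catalase, and Fth1, ferritin heavy chain, were higher by 0.68 ± 0.09, 0.78 ± 0.13 and 0.75 ± 0.12. Hmox1, haem oxygenase, fell to 11.4 ± 1.02 in mdxTG, against 18.8 ± 4.57 in mdx, and Sod2, the mitochondrial superoxide dismutase, to 155 ± 17.1 in mdxTG, against 236 ± 11.2 in mdx. Gclc, Gclm and Prdx1 did not pass.

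Fast-fibre genes fell in 5 of 14 cases, and 8 fell with edgeR and with DESeq2 on the recovered reads. Casq1, the calcium-binding protein of the fast sarcoplasmic reticulum, had 2213, 1798, 2312 and 1923 in the mdxTG libraries, against 4041, 3987, 4059 and 3669 in the mdx libraries, and Pvalb, the calcium buffer parvalbumin, had 4593, 3514, 4469 and 3668 in the mdxTG libraries, against 9317, 8867, 6654 and 6777 in the mdx libraries. The genotypes were fully apart, with log2 folds of -0.94 ± 0.11 and -0.95 ± 0.19. Actn3, the fast alpha-actinin, fell to 3289 ± 259 in mdxTG, against 4824 ± 503 in mdx. The contractile genes Mylpf and Myh1 did not pass, with averages of 8545 ± 1084 and 17586 ± 3203 in mdxTG and 8634 ± 648 and 14803 ± 2678 in mdx. Myh2, the intermediate fast myosin, had 665, 1105, 1611 and 1387 in the mdxTG libraries, against 377, 415, 555 and 566 in the mdx libraries, a rise with adjusted p of 0.0291 that was lost with DESeq2 and without mdx replicates 1 or 2 or mdxTG replicates 2, 3 or 4. Slow-fibre genes rose in 3 of 14 cases. Myoz2, a slow Z-disc protein, had 148, 131, 147 and 167 in the mdxTG libraries, against 32.01, 34.3, 30.7 and 24.2 in the mdx libraries, a log2 fold of 2.28 ± 0.45, and Csrp3 and Fhl1 rose as given, but slow myosin Myh7 had 11.6, 66.99, 27.1 and 66.2 in the mdxTG libraries, against 16.5, 4.66, 28.9 and 17.2 in the mdx libraries, spreading too widely to pass, and Tnni1 averaged 22.9 ± 5.43 in mdxTG and 43.1 ± 14.4 in mdx.

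Genes of satellite cells and regenerating fibres fell in 10 of 20 cases and rose in 4, with a median of -0.69. Developmental isoforms were among the falls. Myl4, embryonic light chain, had 35.8, 27.8, 31.7 and 34.3 in the mdxTG libraries, against 43.2, 113, 73.5 and 81.8 in the mdx libraries, and Chrng, the fetal acetylcholine receptor subunit, averaged 2.54 ± 0.5504 in mdxTG and 10.03 ± 4.69 in mdx. Cdkn1c, an imprinted cell-cycle inhibitor of differentiating myoblasts, had 16.8, 16.5, 14.2 and 15.01 in the mdxTG libraries, against 23.7, 25.9, 31.4 and 29.3 in the mdx libraries, and Myf5, a factor of committed myogenic cells, had 1.33, 1.26, 1.23 and 1.32 in the mdxTG libraries, against 2.86, 3.32, 2.63 and 2.54 in the mdx libraries. The genotypes did not overlap for any of the 4, and adjusted p was 0.00338, 0.0149, 0.000203 and 7.05e-05. The Chrng call was lost with DESeq2 and with a pseudocount of 0.1. Pax7, the satellite cell factor, averaged 4.16 ± 1.11 in mdxTG and 5.27 ± 0.655 in mdx, and Myod1 averaged 22.6 ± 3.95 in mdxTG and 31.4 ± 4.37 in mdx, neither of which passed. Mymk, Mymx and Myh8, genes of fusion and neonatal myosin, had adjusted p of 0.0330, 0.0480 and 0.0490, and lost their calls without each of mdx replicates 2, 3 and 4 and mdxTG replicates 1, 2 and 3. The list count lower was 6 without mdx replicate 3 or mdx replicate 4. In the other direction, Ncam1, an adhesion molecule of denervated and regenerating fibres, had 112, 98.4, 82.8 and 108 in the mdxTG libraries, against 17.2, 27.5, 40.6 and 32.6 in the mdx libraries, a log2 fold of 1.81 ± 0.22, and the imprinted RNA H19 averaged 2002 ± 215 in mdxTG and 1186 ± 174 in mdx.

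Subunits of the acetylcholine receptor moved apart from each other. Chrnd, the delta subunit shared by the fetal and the adult receptor, had 122, 93.997, 84.3 and 101 in the mdxTG libraries, against 7.201, 8.73, 11.999 and 11.6 in the mdx libraries, a log2 fold of 3.30 ± 0.18 with an adjusted p of 1.17e-08. Chrna1, the alpha subunit, fell to 41.3 ± 4.32 in mdxTG, against 62.2 ± 8.66 in mdx, and the adult Chrne to 14.4 ± 0.933 in mdxTG, against 20.2 ± 2.171 in mdx, while Chrnb1 did not pass at -0.02 ± 0.11. Colq, the collagen tail that anchors acetylcholinesterase, had 47.3, 45.4, 38.3 and 36.9 in the mdxTG libraries, against 11.1, 9.98, 11.6 and 9.15 in the mdx libraries, separate groups with a log2 fold of 1.95 ± 0.15. Ache, the enzyme itself, averaged 78.4 ± 3.73 in mdxTG and 70.7 ± 9.73 in mdx and did not pass. Erbb3, a neuregulin receptor, fell to 7.67 ± 0.277 in mdxTG, against 11.8 ± 1.27 in mdx. Over the 17 tested junction genes 4 rose and 5 fell.

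Calcium-handling genes fell in 8 of 22 cases and rose in 3. Jph1, junctophilin, which holds the triad together, had 193, 189, 177 and 184 in the mdxTG libraries, against 365, 294, 329.6 and 321 in the mdx libraries, and Jph2 averaged 495 ± 10.4 in mdxTG and 693 ± 107 in mdx. Cacnb1 and Cacng1, auxiliary subunits of the voltage sensor, rose to 306 ± 23.2 and 376 ± 49.3 in mdxTG, against 148 ± 7.01 and 222 ± 24.9 in mdx. The pore subunit Cacna1s and the release channel Ryr1 did not pass, with log2 folds of 0.14 ± 0.12 and -0.14 ± 0.18. The pump inhibitor Sln, sarcolipin, had 16.6, 9.39, 4.84 and 12.9 in the mdxTG libraries, against 4.47, 6.04, 5.41 and 3.28 in the mdx libraries, with overlapping groups and an adjusted p of 0.246.

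**Figure D5:**
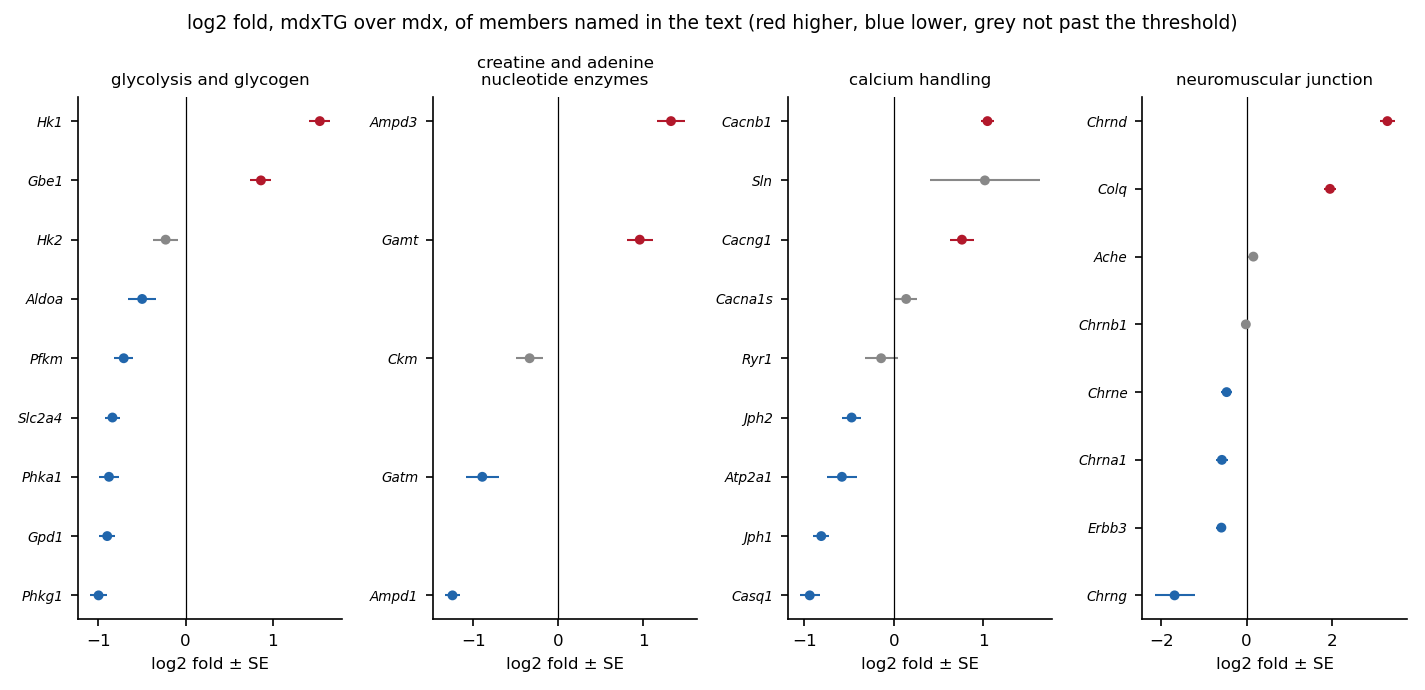
Log2 fold, mdxTG over mdx, with its standard error for the members of 4 lists that the text names, sorted within the list; red points rose, blue points fell and grey points did not pass an adjusted p of 0.05. In glycolysis Hk1 and Gbe1 rose, while Phkg1, Gpd1, Phka1, Slc2a4, Pfkm and Aldoa fell, the call of Aldoa being lost without single libraries. Chrnd at 3.30 and Colq at 1.95 lie highest among the junction genes, and Ampd3 and Ampd1 lie at 1.32 and -1.25.

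Among the ubiquitin ligases of muscle atrophy, Trim63 and Fbxo32 rose. Trim63, known as MuRF1, had 358, 406, 397 and 415 in the mdxTG libraries, against 138, 178, 140.0 and 125 in the mdx libraries, and Fbxo32, known as atrogin-1, had 373, 389.6, 354 and 338 in the mdxTG libraries, against 197, 182, 214 and 201 in the mdx libraries. The groups were separate, with log2 folds of 1.45 ± 0.12 and 0.87 ± 0.12. The calpain Capn2 averaged 180.2 ± 7.89 in mdxTG and 98.1 ± 2.76 in mdx, whereas the muscle calpain Capn3 fell to 105 ± 4.52 in mdxTG, against 148 ± 4.88 in mdx. Klf15, a glucocorticoid-responsive factor, fell to 18.8 ± 3.28 in mdxTG, against 37.1 ± 3.59 in mdx, and Foxo4 to 76.8 ± 4.703 in mdxTG, against 127 ± 14.6 in mdx. Over the 18 genes of atrophy and proteolysis 5 rose and 4 fell. In autophagy 7 of 20 genes rose and 3 fell, and 11 rose and 1 fell in plain CPM. Sqstm1, the cargo receptor p62, had 974, 917.6, 943 and 945 in the mdxTG libraries, against 483, 446, 462 and 401 in the mdx libraries, and Gabarapl1, an autophagosome coat protein, had 72.9, 73.1, 67.7 and 73.7 in the mdxTG libraries, against 36.4, 39.7, 39.2 and 35.6 in the mdx libraries. Both groups were tight and separate, with log2 folds of 1.08 ± 0.07 and 0.92 ± 0.09. Lamp1, a lysosomal membrane protein, rose by 0.35 ± 0.06, and Pink1, the kinase that marks damaged mitochondria, fell to 430.0 ± 37.6 in mdxTG, against 609 ± 71.2 in mdx.

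Glycolysis and glycogen breakdown fell in 14 of 20 cases, with a median of -0.54, and 13 fell in plain CPM. Phkg1, the catalytic subunit of phosphorylase kinase, had 249, 223, 250.4 and 202 in the mdxTG libraries, against 538, 451, 448 and 410.0 in the mdx libraries, and its regulatory subunit Phka1 averaged 433 ± 24.99 in mdxTG and 797 ± 72.03 in mdx. Slc2a4, the insulin-responsive glucose carrier GLUT4, had 259.9, 308, 304 and 271 in the mdxTG libraries, against 541, 459, 539 and 503 in the mdx libraries. The libraries of the genotypes did not overlap for any of the 3, with adjusted p of 4.06e-06, 7.91e-05 and 4.37e-06. Pfkm, the committed step of glycolysis in muscle, fell to 2597 ± 239 in mdxTG, against 4244 ± 388 in mdx, and Gpd1 to 322 ± 27.6 in mdxTG, against 602 ± 69.1 in mdx. Hk1, the hexokinase of most non-muscle tissues, had 63.8, 61.3, 58.5 and 63.4 in the mdxTG libraries, against 17.98, 18.9, 23.3 and 24.2 in the mdx libraries, a rise with a log2 fold of 1.54 ± 0.12, and Hk2, the muscle form, did not pass at -0.23 ± 0.14. Gbe1, the glycogen branching enzyme, averaged 199 ± 8.46 in mdxTG and 109 ± 8.01 in mdx.

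Mitochondrial genes fell by less, and their counts depended on the scaling. Among 26 genes of the TCA cycle or of fatty acid breakdown 14 fell and 2 rose, with a median of -0.25, against 6 lower in plain CPM and 9 without mdxTG replicate 2. Sdha, a subunit of complex II and of the cycle, had 659, 631, 750.2 and 623 in the mdxTG libraries, against 973, 903, 924 and 957 in the mdx libraries, and Acadm, medium-chain acyl-CoA dehydrogenase, had 160.0, 149.8, 189 and 151 in the mdxTG libraries, against 257, 239, 221 and 229.7 in the mdx libraries. Both groups were separate, with log2 folds of -0.50 ± 0.09 and -0.55 ± 0.10. Among 28 nuclear genes of oxidative phosphorylation 11 fell, with a median of -0.30. In plain CPM 3 of them fell, without mdxTG replicate 2 or mdxTG replicate 4 it was 5, without mdx replicate 1 it was 7, and DESeq2 called 17. Ndufs1, a core subunit of complex I, had 330.0, 306, 381 and 289 in the mdxTG libraries, against 476, 504, 437 and 485 in the mdx libraries and was separate between the groups. Of the 12 mitochondrially encoded genes 3 were lower, DESeq2 called 7 lower, and 1 was lower without mdx replicates 1 or 2 or mdxTG replicates 2 or 4. The mitochondrial share of the library differed in the same direction, as given with the depth, and counts for several of these genes can include reads from nuclear copies. Among 18 regulators of mitochondrial content 4 were lower and 1 higher, 1 was lower in plain CPM and 2 were without mdxTG replicate 4. The rise, of Ppargc1b, was lost without mdx replicates 1, 2 or 4 or mdxTG replicates 2 or 4. Perm1, a muscle regulator of oxidative genes, fell to 134 ± 13.1 in mdxTG, against 209.8 ± 34.3 in mdx, and Ppargc1a, PGC-1 alpha, had 25.5, 34.3, 36.4 and 30.4 in the mdxTG libraries, against 45.6, 42.4, 51.5 and 60.3 in the mdx libraries, with an adjusted p of 0.0224 and of 0.0793 in plain CPM. Its adjusted p lay between 0.0509 and 0.0698 without mdx replicates 3 or 4 or mdxTG replicates 1 or 4.

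Creatine and adenine nucleotide enzymes fell in 7 of 13 cases and rose in 3, counts of 7 and 3 that held when any single library was left out. The AMP deaminases moved in opposite directions. Ampd1, the muscle form, had 386, 348, 348 and 369 in the mdxTG libraries, against 901, 895, 800.4 and 852 in the mdx libraries, and Ampd3, the form of red cells and of embryonic or denervated muscle, had 82.1, 77.9, 68.4 and 76.5 in the mdxTG libraries, against 28.5, 34.3, 31.3 and 26.8 in the mdx libraries. The genotypes did not overlap in either, with log2 folds of -1.25 ± 0.09 and 1.32 ± 0.17 and adjusted p of 2.06e-07 and 4.31e-05. Gamt, which completes creatine synthesis, rose to 36.6 ± 4.09 in mdxTG, against 18.7 ± 2.81 in mdx, and Gatm, which starts it, fell to 10.2 ± 0.417 in mdxTG, against 20.02 ± 5.98 in mdx. Ckm, muscle creatine kinase, averaged 11736 ± 985 in mdxTG and 14822 ± 773 in mdx and did not pass.

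Polyamine genes fell in 5 of 12 cases, led by the synthesis and oxidation enzymes. Amd1, S-adenosylmethionine decarboxylase, had 48.1, 33.5, 56.8 and 41.3 in the mdxTG libraries, against 238, 167, 119 and 151 in the mdx libraries, and Smox, spermine oxidase, had 34.97, 33.2, 38.8 and 38.7 in the mdxTG libraries, against 193, 106, 129 and 122 in the mdx libraries. The groups were separate, with log2 folds of -1.88 ± 0.29 and -1.87 ± 0.22. Amd2 is a near-identical copy of Amd1, and its reads may belong to either. Odc1, which starts the pathway, averaged 93.1 ± 12.1 in mdxTG and 103 ± 27.2 in mdx and did not pass.

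Cholesterol synthesis and uptake genes rose in 10 of 18 cases and 1 fell, with a median of 0.41, 6 rose without mdxTG replicate 2, and DESeq2 called 3 lower. Cyp51, a sterol demethylase, had 17.8, 16.4, 14.3 and 13.4 in the mdxTG libraries, against 7.38, 8.64, 5.58 and 6.52 in the mdx libraries, and Insig1, the sterol-regulated retention protein, had 24.6, 25.6, 16.8 and 20.5 in the mdxTG libraries, against 11.5, 10.5, 10.6 and 10.4 in the mdx libraries. The groups were separate, with log2 folds of 1.09 ± 0.12 and 0.98 ± 0.12. Srebf2, the transcription factor of the pathway, averaged 46.7 ± 5.47 in mdxTG and 31.5 ± 2.74 in mdx. Fdft1, squalene synthase, fell to 27.1 ± 1.97 in mdxTG, against 41.6 ± 4.13 in mdx. Circadian clock genes fell in 8 of 18 cases and rose in 2, and 5 fell in plain CPM. Ciart had 3.08, 2.52, 3.22 and 3.04 in the mdxTG libraries, against 7.11, 7.597, 10.1 and 7.37 in the mdx libraries, Per3 had 34.2, 24.5, 24.7 and 30.4 in the mdxTG libraries, against 51.7, 49.1, 51.02 and 42.96 in the mdx libraries, and Dbp averaged 49.2 ± 7.36 in mdxTG and 82.1 ± 9.39 in mdx. Npas2, a partner of Arntl, rose to 5.75 ± 1.19 in mdxTG, against 2.89 ± 0.383 in mdx. Clock, Arntl and Per1 did not pass. The hour of dissection is not in the labels.

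Cell cycle and DNA replication genes fell in 13 of 22 cases, with a median of -0.63, and between 10 and 14 fell when any single library was left out. Top2a, a topoisomerase of dividing cells, had 3.12, 3.18, 4.22 and 4.34 in the mdxTG libraries, against 5.59, 8.58, 8.65 and 11.6 in the mdx libraries, and Aurka, a mitotic kinase, had 1.999, 1.68, 2.33 and 1.91 in the mdxTG libraries, against 5.94, 6.71, 3.48 and 5.08 in the mdx libraries. The genotypes were fully apart, with log2 folds of -1.08 ± 0.26 and -1.20 ± 0.18. Mcm2, a replication helicase subunit, averaged 7.33 ± 0.549 in mdxTG and 11.2 ± 0.872 in mdx, and Cenpe averaged 0.974 ± 0.0649 in mdxTG and 2.43 ± 0.608 in mdx. Pcna did not pass at 0.18 ± 0.10. Of 24 cytosolic ribosomal protein genes tested, Rpl3l, the muscle paralog of Rpl3, was lower by -0.32 ± 0.11 with an adjusted p of 0.0349 that reached 0.122 in plain CPM and between 0.0533 and 0.102 without mdx replicates 1 or 3 or mdxTG replicates 1, 2 or 4. In plain CPM 5 ribosomal protein genes were higher. Of 20 ribosome biogenesis genes, Bop1 rose to 30.96 ± 1.18 in mdxTG, against 24.1 ± 0.6103 in mdx, and Nhp2 was higher by 0.47 ± 0.15, a call lost without mdx replicates 3 or 4 or mdxTG replicates 1, 3 or 4.

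Macrophage markers did not move as a block. Of 20 tested 8 fell and 2 rose, with a median of -0.39, and 5 fell without mdx replicate 4, the library with the highest sum of these markers. Lgals3, galectin-3, had 467, 383, 399.7 and 384 in the mdxTG libraries, against 72.4, 81.2, 63.7 and 85.2 in the mdx libraries, and Cd68, a lysosomal protein, had 105, 95.8, 92.6 and 97.6 in the mdxTG libraries, against 25.5, 29.5, 29.998 and 41.7 in the mdx libraries. These were separate rises, with log2 folds of 2.43 ± 0.22 and 1.63 ± 0.23, and both genes are also made by other cells. Against them, Ctss, cathepsin S, had 39.5, 43.4, 44.5 and 54.6 in the mdxTG libraries, against 85.6, 109, 122 and 158 in the mdx libraries, Itgam had 2.999, 3.36, 2.72 and 3.39 in the mdxTG libraries, against 5.98, 7.62, 5.496 and 8.34 in the mdx libraries, and Trem2, a receptor of lipid-associated macrophages, had 5.89, 4.91, 4.72 and 6.45 in the mdxTG libraries, against 10.5, 13.6, 10.7 and 13.4 in the mdx libraries. All 3 were falls without overlap, with log2 folds of -1.35 ± 0.28, -1.01 ± 0.19 and -1.07 ± 0.20. The general markers Adgre1, Csf1r, Cd163 and Mrc1 did not pass, and Adgre1 averaged 20.6 ± 5.85 in mdxTG and 28.99 ± 10.9 in mdx. The list summed to 1157, 1234, 1165 and 1335 in the mdxTG libraries, against 909, 1168, 1300.4 and 1609 in the mdx libraries, with overlap. Csf3r, a receptor of neutrophils and monocytes, fell to 1.94 ± 0.3602 in mdxTG, against 4.002 ± 0.141 in mdx, while the neutrophil markers S100a8, S100a9, Ly6g, Cxcr2 and Elane and the lymphocyte markers Cd3e, Cd8a and Ms4a1 were not analysed here.

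Interferon-response genes rose in 3 of 20 cases and fell in 2. Cxcl10, a chemokine, had 6.21, 4.2004, 3.34 and 4.58 in the mdxTG libraries, against 0.4801, 0.512, 0.547 and 0.815 in the mdx libraries, a log2 fold of 2.20 ± 0.18. Ifit1 was higher by 0.49 ± 0.14 and Oas2 lower by -0.70 ± 0.20, and both calls were lost without mdxTG replicate 2, Ifit1 also without mdx replicate 1 or mdxTG replicate 4. Isg15 and Irf7 did not pass. Of 14 complement genes, C3ar1 was lower by -1.02 ± 0.31, with an adjusted p of 0.0245 that reached more than 0.05 in plain CPM and without mdx replicates 3 or 4 or mdxTG replicates 1, 2 or 3.

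Of 12 endothelial markers 0 passed with limma, edgeR or DESeq2, and 1 had an unadjusted limma p under 0.05. Their summed level was between 497 and 629 in mdxTG and between 541 and 681 in mdx. Among 12 smooth muscle and pericyte markers, Cspg4, the proteoglycan NG2, had 53.5, 56.3, 51.1 and 63.6 in the mdxTG libraries, against 20.3, 22.6, 30.2 and 23.7 in the mdx libraries, a log2 fold of 1.21 ± 0.13, and the remaining rises were Des, which is mostly of fibres, and Myh11 with an adjusted p of 0.0401 and overlapping groups. The Myh11 call was lost with DESeq2, with edgeR and without mdx replicates 1, 2 or 3 or mdxTG replicates 2, 3 or 4, where the limma adjusted p reached 0.126. In plain CPM 7 members were higher, and without mdx replicate 4 it was 6. Among 12 nerve and Schwann cell markers, Egr2 rose as given and Prx was higher with an adjusted p of 0.0451, while the myelin gene Mbp did not pass. The Prx call was lost with a pseudocount of 2 and without mdx replicates 1, 2 or 4 or mdxTG replicates 2, 3 or 4. In plain CPM 6 nerve markers were higher, and 1 was without mdx replicates 1, 2 or 4 or mdxTG replicates 2, 3 or 4.

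Adipocyte markers rose in 4 of 12 cases and fell in 2. Car3, a carbonic anhydrase of fat and of slow fibres, had 866, 814, 629 and 944 in the mdxTG libraries, against 1867, 2292, 2309 and 1580.1 in the mdx libraries, a fall with a log2 fold of -1.31 ± 0.16. Adipoq and Plin1, which mark fat cells, were higher by 0.92 ± 0.29 and 0.96 ± 0.32, with adjusted p of 0.0296 and 0.0389, and both calls were lost without mdx replicates 1 or 2 or mdxTG replicates 1, 2 or 3. None of the 12 was higher without mdx replicates 1 or 2 or mdxTG replicates 1 or 3, and 1 was without mdxTG replicate 2. Lep, Fabp4 and Pparg did not pass. Red cell markers rose in 2 of 6 cases, in 4 in plain CPM, with DESeq2 and without mdx replicate 1, in 5 without mdxTG replicate 4, and in 1 without mdx replicate 2, mdxTG replicate 1 or mdxTG replicate 3. Alas2, the haem synthesis enzyme, rose to 4.09 ± 1.66 in mdxTG, against 1.86 ± 0.536 in mdx, and the alpha globin Hba-a1 was higher by 1.01 ± 0.30 with overlapping groups and a near-identical copy, a call lost without mdx replicate 2, mdxTG replicate 1 or mdxTG replicate 3.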

How the data were processed

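Polyadenylated RNA of tibialis anterior muscle was sequenced in 13 libraries, of which 4 mdxTG and 4 mdx are compared. Reads were aligned to mm10 with STAR after bcl2fastq 2.17, and edgeR was used, per the submitters' processing notes, with no version given for STAR or edgeR in the sources used here. The deposited expression sheet holds normalized CPM, CPM (read counts scaled to library size) divided by the authors' scaling factor for each library, treated here as a signal since its column sums differ from that of plain CPM. Whole read counts were recovered from the deposited values (100% within 0.001 reads) and served the edgeR 4.0.16 and DESeq2 1.42.0 alternatives. The log2 fold changes and p-values in the authors' deposited table are the authors' own and are used only where that table is named.

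Genes with at least 0.5 normalized CPM in 4 libraries were tested with limma 3.58.1 (R 4.3.3) on log2(normalized CPM + 0.5), with Benjamini-Hochberg adjustment over all genes and a threshold of 0.05. All 13 libraries entered the fit and share its estimate of spread. Fold changes on this scale understate the change of low genes. Lists are described by counts and medians, with no set test. The members and lists were chosen with earlier results of these data known. By rule, genes were named for Sspn, Dmd and Utrn, the 12 largest log2 rises and falls without overlap and with at least 5 normalized CPM in the higher group, the 6 largest in normalized CPM each way, and leading members of each list. The other members named were chosen after their values were seen. Coordinates come from GENCODE M21 by symbol, matched for 13705 of 13846 genes. Replicates were checked for identical or near-identical libraries, and none were found. The fitting code was tested on simulated data. Some list members enter the counts but are not reported here by name.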

Additional observations from a re-analysis of the deposited data

Results flagged for a closer look

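Single libraries stood apart from the other 3 of their group in 16 of 344 groups tested with Dixon's ratio, the gap to the nearest library over the range of the group, read against its 95% critical value. Chance alone would give about 17.2 such groups at 1 in 20. Among the mdxTG libraries, replicate 1 was high for Atp13a4 at 53.4 normalized CPM against 26.5 in the nearest library (ratio 0.908) and for Gsta1 at 10.9 against 6.90 (0.907), and low for Tubb3 at 0.229 against 0.638 (0.85). Replicate 3 was high for Fam57b at 12.4 against 7.60 (0.941), Mettl21c at 12.2 against 6.39 (0.839) and Atp5a1 at 1818 against 1585 (0.919), and low for Gabarapl1 at 67.7 against 72.9 (0.863). Replicate 4 was low for Scd1 at 129 against 174 (0.942).

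Among the mdx libraries, replicate 2 was high for Mt2 at 199 against 45.5 (ratio 0.978), S100a10 at 50.8 against 37.1 (0.846), Smad3 at 149 against 126 (0.832) and Mt4 at 0.0446 against 0 (1), the last standing for 2 reads. Replicate 1 was high for Perp at 1.55 against 1.09 (0.831) and Insig1 at 11.5 against 10.6 (0.851). Replicate 3 was high for Ciart at 10.1 against 7.60 (0.839), and replicate 4 for Ccl5, a chemokine of T cells, at 1.52 against 0.635 (0.85).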

How the results depend on the processing

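Counts of genes higher and lower were 2133 and 1789. In plain CPM they were 3503 and 980. They ranged between 1767 and 1896 higher and between 1354 and 1536 lower when each library was left out in turn, and the log2 fold of Sspn ranged between 3.85 and 3.96. DESeq2 called 2215 higher and 2274 lower, edgeR 2115 and 1802, and pseudocounts of 0.1 and 2 gave 2092 and 1739, and 2173 and 1805. Without a filter on low values 2139 were higher and 1790 lower, and with only the mdxTG and mdx libraries in the fit 2499 and 2156. None of the called genes named by rule changed sign under any of these settings. Of 151 called genes named by rule, 22 lost the call under at least 1 setting, as did 105 of all 339 called list members. With only the mdxTG and mdx libraries in the fit, 8 nerve markers, 7 collagens and matrix glycoproteins, 5 smooth muscle markers, 5 calcium-handling genes, 4 tubulins, 4 TCA cycle or fatty acid genes, 3 cytosolic ribosomal protein genes and 2 tenocyte markers were higher, and 17 nuclear genes of oxidative phosphorylation, 8 junction genes, 8 fast-fibre genes, 2 slow-fibre genes and 2 actin-binding genes were lower. Same-numbered libraries of the genotypes are not paired by the labels, and their deviations correlated at 0.41, -0.36, -0.19 and 0.32, so the number is treated as a name. Over all pairs, mdxTG replicates 1 and 3 correlated positively with mdx replicates 1 and 2, between 0.12 and 0.41. So did mdxTG replicates 2 and 4 with mdx replicates 3 and 4, between 0.26 and 0.37. The remaining pairs were negative, down to -0.47. The second principal component, 15.45% of the variance, parted the libraries in the same way. A factor shared across the genotypes was not tested. With the replicate number as a block, 2223 genes were higher and 1887 lower in the fit of all libraries, and 2394 and 2105 in the fit of the mdxTG and mdx libraries alone. In these blocked fits 10 and 12 collagens and matrix glycoproteins, 3 and 8 tenocyte markers and 10 and 10 matrix proteases were higher, against 3, 1 and 6 in the fit of all libraries without the block. The means compared rest on 4 libraries a group, and the limma p-values of the main fit also on the spread of the wild-type libraries. Values near 3 reads carry counting error that limits the folds of Atp13a4, Prom2, Gsta1 and Mt4.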

Other observations

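Some gene groups outside the lists were put together after their values were seen, so their counts are a description. Genes of NF-kB signalling and of the receptor for TWEAK, a TNF-family cytokine acting on muscle, were higher in 14 of 19 cases and lower in 1, with a median log2 fold of 0.61. Nfkb2, a subunit of the non-canonical pathway, averaged 55.9 ± 3.04 normalized CPM in mdxTG and 17.6 ± 1.38 in mdx (SD, n = 4 each), a log2 fold of 1.64 ± 0.08 with a limma adjusted p of 2.12e-09. Relb, its partner, averaged 18.8 ± 1.82 in mdxTG and 8.07 ± 0.809 in mdx, and Map3k14, the kinase that activates the pathway, averaged 23.6 ± 3.06 in mdxTG and 8.78 ± 1.36 in mdx. The receptor gene Tnfrsf12a had 75.6, 72.8, 72.9 and 70.7 in the mdxTG libraries, against 18.9, 35.3, 14.98 and 14.6 in the mdx libraries. Of the canonical pathway, the subunit Rela was higher by 0.31 ± 0.07 and the inhibitors Nfkbib and Nfkbie by 0.50 ± 0.07 and 1.97 ± 0.19. The kinase complex genes Ikbkb and Ikbkg were higher by 0.37 ± 0.07 and 0.61 ± 0.09, and Tnfaip3 by 1.25 ± 0.17. The subunits Nfkb1 and Rel, the inhibitor Nfkbia and the kinase gene Chuk did not pass the test.

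Among 7 protein methyltransferases of muscle, 4 were lower and 1 higher. Beside Mettl11b and Mettl21c, Mettl21e averaged 2.68 ± 0.974 in mdxTG and 9.88 ± 2.06 in mdx, and Smyd2 averaged 63.1 ± 9.79 in mdxTG and 191 ± 30.6 in mdx. Microtubule-associated proteins were higher in 8 of 12 cases. Map1a averaged 217 ± 28.4 in mdxTG and 37.4 ± 10.2 in mdx, and Map6 averaged 25.3 ± 1.296 in mdxTG and 6.06 ± 0.5104 in mdx. Of 7 genes of glutamine and alanine metabolism 2 were lower, Glul, glutamine synthetase, with 113, 152, 170.5 and 177 in the mdxTG libraries, against 282, 351, 432 and 552 in the mdx libraries, and Gpt2, alanine transaminase, with 71.04, 67.7, 89.9 and 63.3 in the mdxTG libraries, against 222, 204, 225 and 255 in the mdx libraries.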
